A study of Mus musculus with 6 samples.

Results

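The genes described here are 36 genes of monocytes and macrophages, read in B16-F10 melanoma tumors of mice that had received T cells with 1 of 2 cytokine drugs. They were found by exact match of the gene symbol, and all 36 were among the 21358 entries of the deposited expression table. They comprise lineage factors and markers, Fc receptors and their adaptors, receptors for uptake, subunits of the NADPH oxidase, lysozymes, and membrane and signalling genes of myeloid cells. By their textbook expression 8 were placed on the monocyte-like side, 10 on the tissue macrophage side, and 18 were counted as shared.

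RNA was sequenced from 6 whole tumors harvested at day 12 of treatment, 3 per group. All 6 came from C57/BL6 mice carrying B16F10, a pigmented melanoma line that grows in this strain. All mice were irradiated with 500 cGy and given adoptive cell transfer (ACT) of pmel-1 CD8 T cells, whose transgenic receptor recognises the melanocyte antigen gp100, once tumors measured 150 mm3 or more. The ACT + IL-2 group received IL-2 at 0.4 mg/kg by the intraperitoneal route on consecutive days of each cycle. The ACT + NKTR-214 group received NKTR-214, an IL-2 prodrug that carries releasable polyethylene glycol chains, intravenously at 0.8 mg/kg on the first day of each cycle. Dose, route and schedule thus changed together with the drug, and their parts in any difference cannot be told apart. The question addressed is how the myeloid transcripts of the tumor differed between the drugs. Values are FPKM, which are reads scaled by the exon length of the gene and by the mapped reads of the library, and the 3 values of a group are always given in the order of replicates 1, 2 and 3.

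Monocytes are made in the bone marrow, travel in blood and enter tumors, where they can mature into macrophages. Both depend on the transcription factor PU.1 and on growth signals through the CSF-1 receptor. Mouse classical monocytes carry Ly6C at their surface, while mature macrophages carry F4/80, MerTK and CD64 and are known for engulfing dying cells and antibody-coated targets and for killing microbes with oxidants and lysozyme.

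Monocyte and macrophage transcripts were more abundant in the ACT + NKTR-214 tumors. Of the 36 genes, 33 were higher than in the ACT + IL-2 tumors at a Benjamini-Hochberg adjusted p under 0.05 in limma, against 20.7% of all 14172 genes tested. None was lower, either after adjustment or at an unadjusted p under 0.05, against 8.28% of all genes after adjustment. The median log2 fold change of the 36 was 1.63, and that of all genes tested was 0.05. In 29 of the 36 every ACT + NKTR-214 tumor lay above every ACT + IL-2 tumor, which held for 27.1% of all genes. The rise ran from 0.69 for Axl to 3.99 for Ly6c2 on the log2 scale of FPKM + 1, with adjusted p-values of at most 0.0247 (Aif1). The 3 genes that did not pass were Cx3cr1, Marco and Vsig4. FPKM are shares of a library. In whole tumors a greater number of these cells, more of the RNA per cell and less RNA from other cells cannot be told apart.

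The defining markers of these cells, Adgre1, Csf1r, Cd68, Itgam, Ly6c2, Mertk and Fcgr1, were present in every tumor, the lowest value among them being 2.41 FPKM (Mertk). The steps of the FPKM values place the depth of the 6 libraries at 0.877 to 1.03 times that of ACT + IL-2 replicate 1, or at roughly 20900000 to 24600000 mapped reads each. The number of reads is approximate, because the gene lengths used by the authors are not given, and with GENCODE lengths the listed genes would hold 81.3% to 104% of those reads. A fit without ACT + IL-2 replicate 2, whose FPKM values sum to 176419.8 against 217581.4 to 246513.7 in the other libraries, kept 21 of the 33 calls and lost Adgre1, Aif1, Cd14, Csf1r, Fcer1g, Fcgr1, Fcgr4, Lst1, Lyz1, Ms4a7, Sirpa and Spi1. With each gene's own variance in place of limma's moderated one, 0 of the 36 passed, although 26 had an unadjusted p under 0.05 and the smallest adjusted p was 0.0549. Scaling to a common 75th percentile or quantile normalization left 30 of the 33 calls, although the share of higher genes among all genes called went from 71.5% to 49.0% and 37.2%, and quantile normalization moved the median of all genes by -0.14.

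**Figure D1:**
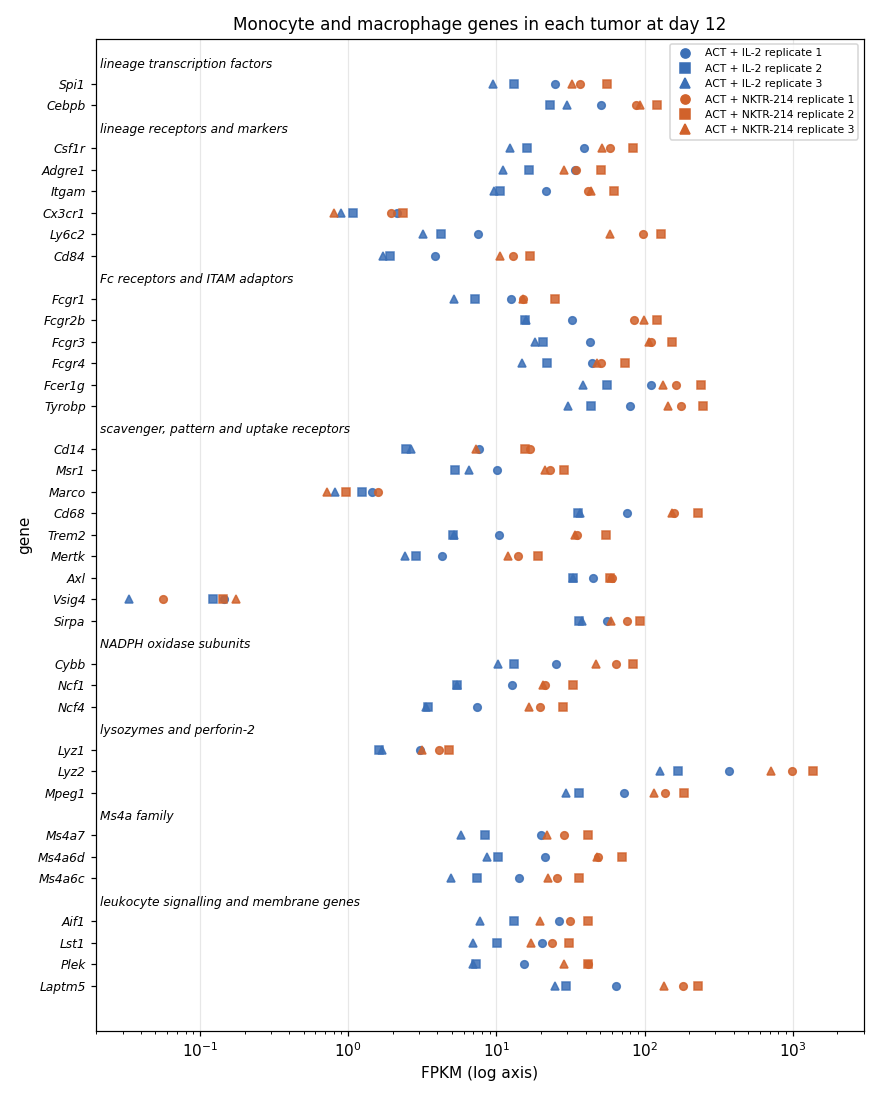
FPKM of each of the 36 genes (rows, grouped by role) in each tumor, on a log axis; blue symbols are the 3 ACT + IL-2 tumors and orange symbols the 3 ACT + NKTR-214 tumors, with 1 symbol shape per replicate. Blue and orange separate in 29 rows and mix in the other 7, among them Marco, Cx3cr1 and Vsig4, and the blue circle, ACT + IL-2 replicate 1, is the rightmost blue symbol in all 36.

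Both lineage transcription factors rose. Spi1, which encodes PU.1, stood at 25.02, 13.2 and 9.56 FPKM in the ACT + IL-2 tumors and 36.8, 55.9 and 32.3 FPKM in the ACT + NKTR-214 tumors. All 3 ACT + NKTR-214 tumors lay above the highest ACT + IL-2 tumor, replicate 1 (log2 fold change 1.40 ± 0.26 SE, adjusted p = 0.000836). Cebpb, a C/EBP factor that supports Ly6C-low monocytes and inflammatory gene expression, ran from 23.2 to 50.9 FPKM in the ACT + IL-2 tumors and from 87.8 to 122 FPKM in the ACT + NKTR-214 tumors, again without overlap (log2 fold change 1.58). Of its sequence windows of 50 bases, 18.1% also lie in Tmem189, which overlaps it on the opposite strand, and since the strand setting of the counting is not given, reads there cannot be assigned to either.

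The proximal promoters of 6 of the genes are shown so that genes on both sides of the test's threshold can be read side by side. Several of the 36, Itgam and Csf1r among them, are known PU.1 targets. RefSeq entries (build GRCm38.p6) were held for 26 of the 36. The motif searched was the PU.1 core, GAGGAA, on both strands (TTCCTC on the other) in the 250 bases before the start site. It was present in 13 of the 26 and in 25.9% of all 27025 genes with an entry. The longer form GAGGAAGT, which contains the core, was present in 2 of 26 (7.69%), Ly6c2 and Fcgr4, and in 2.79% of all genes. A C/EBP-like motif, TTGCNNAA, was present in 3 of 26 (11.5%), Fcgr3, Cd68 and Lyz1, and in 10.8% of all genes. A match is a description of letters and not a site of binding. The first 3 sequences below belong to the genes with the largest rise, and the last 3 to the genes that did not pass the test. Capitals mark the PU.1 core on either strand, and every sequence reads 5′ to 3′ on the strand of its gene.
Ly6c2: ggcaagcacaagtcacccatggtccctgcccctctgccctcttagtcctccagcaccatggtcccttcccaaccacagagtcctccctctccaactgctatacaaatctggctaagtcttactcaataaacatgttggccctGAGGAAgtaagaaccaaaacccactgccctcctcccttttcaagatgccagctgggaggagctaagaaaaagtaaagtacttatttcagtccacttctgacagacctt
Trem2: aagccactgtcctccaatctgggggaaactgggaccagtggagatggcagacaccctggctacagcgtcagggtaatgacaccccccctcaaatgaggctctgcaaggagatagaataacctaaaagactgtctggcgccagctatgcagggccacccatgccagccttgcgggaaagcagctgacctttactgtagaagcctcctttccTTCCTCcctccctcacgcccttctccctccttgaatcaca
Lyz2: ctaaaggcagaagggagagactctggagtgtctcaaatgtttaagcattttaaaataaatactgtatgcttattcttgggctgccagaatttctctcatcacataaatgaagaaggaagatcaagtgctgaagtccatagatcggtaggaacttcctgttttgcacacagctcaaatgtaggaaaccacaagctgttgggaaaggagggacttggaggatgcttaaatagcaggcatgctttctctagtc
Cx3cr1: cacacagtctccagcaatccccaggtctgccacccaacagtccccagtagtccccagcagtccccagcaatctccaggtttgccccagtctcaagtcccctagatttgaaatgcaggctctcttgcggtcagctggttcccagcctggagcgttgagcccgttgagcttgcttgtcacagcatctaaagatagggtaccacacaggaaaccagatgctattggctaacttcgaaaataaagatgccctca
Marco: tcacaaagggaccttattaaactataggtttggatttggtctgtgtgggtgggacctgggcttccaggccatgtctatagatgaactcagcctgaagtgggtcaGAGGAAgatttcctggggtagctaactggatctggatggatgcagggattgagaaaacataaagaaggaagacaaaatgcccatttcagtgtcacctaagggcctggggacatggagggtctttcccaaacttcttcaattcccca
Vsig4: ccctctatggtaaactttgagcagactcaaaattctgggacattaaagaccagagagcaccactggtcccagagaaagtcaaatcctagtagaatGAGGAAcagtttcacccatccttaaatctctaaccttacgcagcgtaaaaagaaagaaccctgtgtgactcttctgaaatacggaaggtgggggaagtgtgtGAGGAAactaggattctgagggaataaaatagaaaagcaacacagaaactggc
They cover chr15:75111972-75112221 (minus strand) for Ly6c2, chr17:48346151-48346400 (plus strand) for Trem2, chr10:117282273-117282522 (minus strand) for Lyz2, chr9:120068297-120068546 (minus strand) for Cx3cr1, chr1:120505025-120505274 (minus strand) for Marco and chrX:96293439-96293688 (minus strand) for Vsig4. The core lay 108 bases before the start in Ly6c2 and 40 bases before it in Trem2, where it is on the other strand. Lyz2 and Cx3cr1 held none, Marco held 1 at 146 bases and Vsig4 held 2, at 155 and 53 bases. The motif was thus present on both sides of the test's threshold.

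Among lineage receptors and markers, 5 of 6 rose. Ly6c2 gave the largest difference of all 36. This gene encodes Ly6C2, part of the Ly6C antigen of classical monocytes, which activated CD8 T cells also carry. It stood at 7.47, 4.24 and 3.22 FPKM in the ACT + IL-2 tumors and 97.5, 129 and 58.2 FPKM in the ACT + NKTR-214 tumors. The lowest ACT + NKTR-214 value was 7.80 times the highest ACT + IL-2 value, and the ratio of the group means was 19.1 (log2 fold change 3.99 ± 0.26 SE, adjusted p = 5.82e-08). Its neighbour Ly6c1, with which 33.0% of its windows are identical, also rose, standing at 7.77, 5.15 and 4.44 FPKM in the ACT + IL-2 tumors and 8.71, 14.6 and 10.2 FPKM in the ACT + NKTR-214 tumors (log2 fold change 0.84 ± 0.20 SE, adjusted p = 0.00519).

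Csf1r, the receptor for CSF-1 and IL-34, stood at 38.8, 16.01 and 12.4 FPKM in the ACT + IL-2 tumors and 58.1, 83.5 and 51.98 FPKM in the ACT + NKTR-214 tumors. The groups did not overlap (log2 fold change 1.62 ± 0.30 SE, adjusted p = 0.000633). Adgre1, the F4/80 macrophage marker, stood at 34.05, 16.5 and 11.1 FPKM in the ACT + IL-2 tumors and 34.3, 50.4 and 28.5 FPKM in the ACT + NKTR-214 tumors. Here ACT + IL-2 replicate 1 lay above the lowest ACT + NKTR-214 tumor, and the rise was smaller (log2 fold change 0.95 ± 0.29 SE, adjusted p = 0.0223).

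Itgam, the CD11b integrin chain shared by monocytes, macrophages and neutrophils, stood at 21.4, 10.6 and 9.69 FPKM in the ACT + IL-2 tumors and 41.8, 61.8 and 43.8 FPKM in the ACT + NKTR-214 tumors, without overlap (log2 fold change 1.81 ± 0.24 SE, adjusted p = 2.95e-05). Its level may be uncertain, because 72.4% of its windows are shared with the overlapping GENCODE model Gm49368. The deposited table has no entry under that symbol, so whether the model affected the counting is not known. Cd84, a SLAM family receptor of many leukocytes, ran from 1.71 to 3.83 FPKM in the ACT + IL-2 tumors and from 10.6 to 16.8 FPKM in the ACT + NKTR-214 tumors (log2 fold change 2.09). Cx3cr1, the fractalkine receptor of patrolling monocytes and resident macrophages, was the exception. It stood at 2.13, 1.07 and 0.894 FPKM in the ACT + IL-2 tumors and 1.94, 2.36 and 0.799 FPKM in the ACT + NKTR-214 tumors, with ACT + IL-2 replicate 1 between the higher ACT + NKTR-214 tumors and ACT + NKTR-214 replicate 3 the lowest of all 6. Its log2 fold change was 0.18 ± 0.22 (SE), with an adjusted p of 0.586. The FPKM steps of the file correspond to 190, 92 and 70 reads in the ACT + IL-2 tumors and to 179, 215 and 71 reads in the ACT + NKTR-214 tumors. Cx3cr1 passed the test when ACT + IL-2 replicate 1 or ACT + NKTR-214 replicate 3 was left out.

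All 6 Fc receptor and adaptor genes rose, and in each the groups were separate. The activating receptor Fcgr3 stood at 42.97, 20.6 and 18.2 FPKM in the ACT + IL-2 tumors and 111, 152 and 108 FPKM in the ACT + NKTR-214 tumors (log2 fold change 2.23 ± 0.25 SE, adjusted p = 7.61e-06). Fcgr2b, the sole inhibitory IgG receptor, stood at 32.3, 15.6 and 15.7 FPKM in the ACT + IL-2 tumors and 85.4, 122 and 99.4 FPKM in the ACT + NKTR-214 tumors (log2 fold change 2.28 ± 0.23 SE, adjusted p = 2.69e-06). The log2 fold changes of the inhibitory and the activating receptor lay within 1 SE of each other, and 12.5% of the windows of Fcgr2b and 12.8% of those of Fcgr3 are shared between the 2 genes.

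The high-affinity receptor Fcgr1, also called CD64, ran from 5.14 to 12.6 FPKM in the ACT + IL-2 tumors and from 15.1 to 24.7 FPKM in the ACT + NKTR-214 tumors (log2 fold change 1.10). Fcgr4, the IgG2 receptor of Ly6C-low monocytes and macrophages, ran from 14.8 to 44.1 FPKM in the ACT + IL-2 tumors and from 47.7 to 73.2 FPKM in the ACT + NKTR-214 tumors (log2 fold change 1.18). In both, replicate 1 was the highest ACT + IL-2 tumor and came close to the lowest ACT + NKTR-214 tumor.

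Fcer1g, the common gamma chain that carries the signalling motif for the activating Fc receptors, stood at 109.6, 55.4 and 38.1 FPKM in the ACT + IL-2 tumors and 163, 238 and 133 FPKM in the ACT + NKTR-214 tumors (log2 fold change 1.48 ± 0.30 SE, adjusted p = 0.00148). Tyrobp, the DAP12 adaptor that serves TREM2 and NK receptors, stood at 79.1, 43.3 and 30.3 FPKM in the ACT + IL-2 tumors and 175, 247 and 144 FPKM in the ACT + NKTR-214 tumors (log2 fold change 1.94 ± 0.28 SE, adjusted p = 7.24e-05). Both adaptors were among the most abundant of the 36 in FPKM.

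Of 9 scavenger, pattern and uptake receptors, 7 rose. Trem2, a lipid-sensing receptor of macrophages in tumors and fat, had the second largest difference of the 36. It stood at 10.4, 5.06 and 5.17 FPKM in the ACT + IL-2 tumors and 34.8, 54.9 and 33.8 FPKM in the ACT + NKTR-214 tumors, so that the lowest ACT + NKTR-214 tumor held 3.24 times the FPKM of the highest ACT + IL-2 tumor (log2 fold change 2.45 ± 0.23 SE, adjusted p = 1.47e-06). Mertk, a receptor that takes up apoptotic cells, stood at 4.27, 2.89 and 2.41 FPKM in the ACT + IL-2 tumors and 14.00, 19.2 and 12.04 FPKM in the ACT + NKTR-214 tumors (log2 fold change 1.94 ± 0.19 SE, adjusted p = 2.39e-06). Axl, a relative of Mertk that fibroblasts and tumor cells also express, had the smallest rise, at 45.2, 32.9 and 32.7 FPKM in the ACT + IL-2 tumors and 60.5, 58.3 and 59.7 FPKM in the ACT + NKTR-214 tumors (log2 fold change 0.69 ± 0.16 SE, adjusted p = 0.00373).

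Cd68, the lysosomal glycoprotein used as a macrophage stain, stood at 76.6, 35.6 and 36.8 FPKM in the ACT + IL-2 tumors and 159, 229 and 153 FPKM in the ACT + NKTR-214 tumors (log2 fold change 1.91 ± 0.25 SE, adjusted p = 3.70e-05). Msr1, scavenger receptor A, ran from 5.26 to 10.1 FPKM in the ACT + IL-2 tumors and from 21.4 to 28.7 FPKM in the ACT + NKTR-214 tumors (log2 fold change 1.64). Sirpa, the inhibitory receptor for CD47, ran from 35.9 to 56.03 FPKM in the ACT + IL-2 tumors and from 59.4 to 93.7 FPKM in the ACT + NKTR-214 tumors (log2 fold change 0.81). In these 3 the groups did not overlap.

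Cd14, the co-receptor for lipopolysaccharide, stood at 7.63, 2.45 and 2.65 FPKM in the ACT + IL-2 tumors and 16.9, 15.5 and 7.24 FPKM in the ACT + NKTR-214 tumors (log2 fold change 1.49 ± 0.32 SE, adjusted p = 0.00208). Its lowest ACT + NKTR-214 tumor, replicate 3, fell just below ACT + IL-2 replicate 1. Marco, a scavenger receptor of marginal zone and alveolar macrophages, stood at 1.45, 1.25 and 0.814 FPKM in the ACT + IL-2 tumors and 1.58, 0.966 and 0.717 FPKM in the ACT + NKTR-214 tumors, with the groups fully mixed. Its log2 fold change was -0.07 ± 0.16 (SE), adjusted p = 0.797, from 160 and 159 reads in all. Vsig4, the complement receptor of Kupffer cells and other resident macrophages, was near 0 in every tumor, at 0.146, 0.122 and 0.0333 FPKM in the ACT + IL-2 tumors and 0.0565, 0.143 and 0.176 FPKM in the ACT + NKTR-214 tumors. These values correspond to 10 reads in the ACT + IL-2 group and 13 in the other (log2 fold change 0.03 ± 0.08 SE, adjusted p = 0.815).

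All 3 NADPH oxidase subunits rose. Cybb, the catalytic membrane subunit gp91phox, stood at 25.1, 13.1 and 10.2 FPKM in the ACT + IL-2 tumors and 63.6, 83.3 and 46.9 FPKM in the ACT + NKTR-214 tumors (log2 fold change 1.99 ± 0.26 SE, adjusted p = 2.95e-05). Ncf4, the p40phox subunit, ran from 3.37 to 7.41 FPKM in the ACT + IL-2 tumors and from 16.5 to 27.97 FPKM in the ACT + NKTR-214 tumors (log2 fold change 2.00). Ncf1, the p47phox organiser, ran from 5.43 to 12.8 FPKM in the ACT + IL-2 tumors and from 20.6 to 32.7 FPKM in the ACT + NKTR-214 tumors (log2 fold change 1.61). In each the groups were separate, and the ACT + IL-2 values spanned 3.37 to 25.1 FPKM over the 3 genes.

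Lyz2, lysozyme M, was the most abundant of the 36 genes in every tumor. It stood at 370.3, 167 and 127 FPKM in the ACT + IL-2 tumors and 993, 1367 and 715 FPKM in the ACT + NKTR-214 tumors, without overlap (log2 fold change 2.31 ± 0.35 SE, adjusted p = 0.000117). Lyz1, its copy, which Paneth cells use, stood at 3.05, 1.62 and 1.70 FPKM in the ACT + IL-2 tumors and 4.13, 4.77 and 3.13 FPKM in the ACT + NKTR-214 tumors (log2 fold change 0.70 ± 0.19 SE, adjusted p = 0.0103). Of the windows of Lyz1, 16.1% are shared with Lyz2, so the sequence of reads there cannot assign them to either gene. Mpeg1, perforin-2, a pore-forming protein of phagosomes, ran from 29.5 to 72.5 FPKM in the ACT + IL-2 tumors and from 116 to 183 FPKM in the ACT + NKTR-214 tumors (log2 fold change 1.72).

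The Ms4a genes encode 4-span membrane proteins of myeloid cells. Ms4a6d ran from 8.60 to 21.2 FPKM in the ACT + IL-2 tumors and from 47.9 to 69.9 FPKM in the ACT + NKTR-214 tumors (log2 fold change 2.05), and Ms4a7, a macrophage marker, ran from 5.79 to 20.00 FPKM in the ACT + IL-2 tumors and from 22.05 to 41.7 FPKM in the ACT + NKTR-214 tumors (log2 fold change 1.48). Ms4a6c, high in Ly6C monocytes, ran from 4.94 to 14.3 FPKM in the ACT + IL-2 tumors and from 22.2 to 36.2 FPKM in the ACT + NKTR-214 tumors (log2 fold change 1.63). Of its windows, 56.9% are shared with BE692007, an overlapping transcript of the opposite strand. The deposited table has no entry under that symbol either, so its effect on the counting is not known. The groups did not overlap in any of the 3 Ms4a genes.

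All 4 leukocyte signalling and membrane genes rose. Laptm5, a lysosomal protein of blood cells, ran from 25.01 to 63.9 FPKM in the ACT + IL-2 tumors and from 134 to 229.8 FPKM in the ACT + NKTR-214 tumors (log2 fold change 2.27). Plek, pleckstrin, a protein kinase C substrate of leukocytes and platelets, ran from 6.995 to 15.2 FPKM in the ACT + IL-2 tumors and from 28.6 to 41.8 FPKM in the ACT + NKTR-214 tumors (log2 fold change 1.88). In both every ACT + NKTR-214 tumor was higher. Aif1, the actin-binding IBA1 of macrophages, stood at 26.5, 13.05 and 7.77 FPKM in the ACT + IL-2 tumors and 31.2, 41.6 and 19.6 FPKM in the ACT + NKTR-214 tumors (log2 fold change 1.02 ± 0.32 SE, adjusted p = 0.0247), and Lst1, a membrane adaptor of nonclassical monocytes, at 20.2, 10.1 and 6.96 FPKM in the ACT + IL-2 tumors and 23.9, 30.9 and 17.2 FPKM in the ACT + NKTR-214 tumors (log2 fold change 0.98 ± 0.28 SE, adjusted p = 0.0141). In Aif1 and Lst1 replicate 1 of the ACT + IL-2 group exceeded replicate 3 of the ACT + NKTR-214 group. Adgre1, Aif1 and Lst1 no longer passed when values were scaled to a common 75th percentile or quantile normalized.

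**Figure D2:**
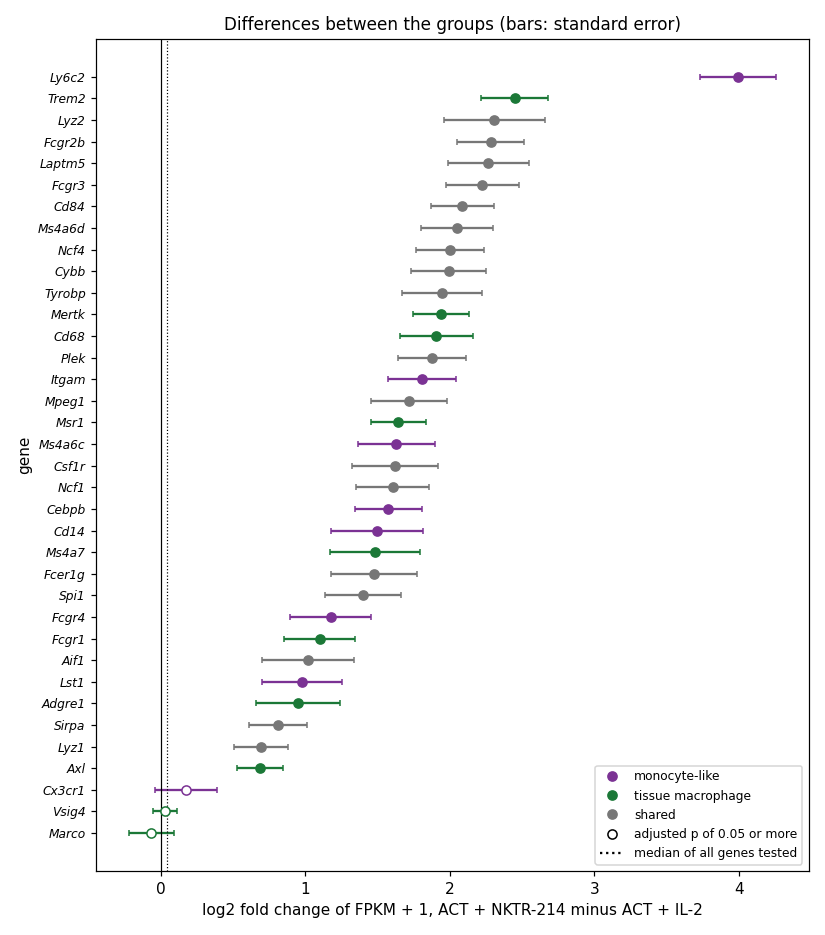
Log2 fold change of FPKM + 1 between the group means (x axis, ACT + NKTR-214 minus ACT + IL-2) with its standard error for each of the 36 genes, coloured by side; open symbols did not reach an adjusted p under 0.05 in limma. Ly6c2 stands apart at 3.99, 3 open symbols lie at the dotted median of all genes or near it, and the monocyte-like, tissue macrophage and shared genes are interleaved over the rest of the range.

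Monocyte-like and tissue macrophage genes rose by overlapping amounts. On the monocyte-like side, 7 of 8 rose, with a median log2 fold change of 1.54 and a range from 0.18 (Cx3cr1) to 3.99 (Ly6c2). On the tissue macrophage side, 8 of 10 rose, with a median of 1.29 and a range from -0.07 (Marco) to 2.45 (Trem2). The 18 shared genes all rose, with a median of 1.91. In each tumor, the mean log2 FPKM + 1 of the tissue macrophage genes minus that of the monocyte-like genes was -0.39, -0.13 and -0.10 in the ACT + IL-2 group and -0.67, -0.70 and -0.42 in the ACT + NKTR-214 group. All 3 ACT + NKTR-214 tumors were lower, by a small margin over ACT + IL-2 replicate 1, but only with Ly6c2 among the monocyte-like genes. Without Ly6c2, which T cells also carry, the values were -0.51, -0.229 and -0.21 in the ACT + IL-2 group and -0.43, -0.45 and -0.229 in the ACT + NKTR-214 group, and the groups overlapped. An exact two-sided permutation test of 3 against 3 cannot give a p below 0.1, and the 2 sides were not tested against each other. The difference between the medians was -0.24 and was -0.052 when genes under a mean of 1 FPKM, Vsig4 among them, were left out of the fit, and -0.089 without ACT + IL-2 replicate 2.

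Since nearly all of these genes rose, each was also set against Csf1r in the same tumor, a ratio that does not depend on how libraries are scaled. This comparison was chosen after the values were seen. Of the other 35 genes, 12 had a higher ratio in every ACT + NKTR-214 tumor than in any ACT + IL-2 tumor, as did 3.86% of all 13953 genes with a ratio. Another 10 had a lower ratio in every ACT + NKTR-214 tumor, as did 78.0% of all genes, and 13 overlapped. The 12 were Ly6c2, Trem2, Cd84, Fcgr2b, Lyz2, Laptm5, Fcgr3, Mertk, Ncf4, Ms4a6d, Cybb and Tyrobp. The 10 were Marco, Cx3cr1, Axl, Sirpa, Lyz1, Adgre1, Lst1, Aif1, Fcgr1 and Fcgr4.

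Trem2 per unit of Csf1r was 0.270, 0.316 and 0.415 in the ACT + IL-2 tumors and 0.600, 0.658 and 0.650 in the ACT + NKTR-214 tumors. Ly6c2 per unit of Csf1r was 0.193, 0.265 and 0.259 in the ACT + IL-2 tumors and 1.68, 1.55 and 1.12 in the ACT + NKTR-214 tumors. For these 2 genes, a macrophage receptor and a monocyte antigen, all 3 tumors of the ACT + NKTR-214 group had the higher ratios. Adgre1 per unit of Csf1r was 0.878, 1.03 and 0.893 in the ACT + IL-2 tumors and 0.591, 0.604 and 0.548 in the ACT + NKTR-214 tumors, so the ratio of this macrophage marker was lower. Within the TAM family of uptake receptors, Mertk per unit of Csf1r was 0.110, 0.180 and 0.194 in the ACT + IL-2 tumors and 0.241, 0.230 and 0.232 in the ACT + NKTR-214 tumors, while Axl was 1.17, 2.06 and 2.63 in the ACT + IL-2 tumors and 1.04, 0.699 and 1.15 in the ACT + NKTR-214 tumors. Among IgG receptors the ratios of Fcgr2b and Fcgr3 were higher, and those of Fcgr1 and Fcgr4 were lower. Of the windows of Csf1r, 17.7% also lie in Hmgxb3, which overlaps it on the opposite strand and whose own log2 fold change was -0.24.

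**Figure D3:**
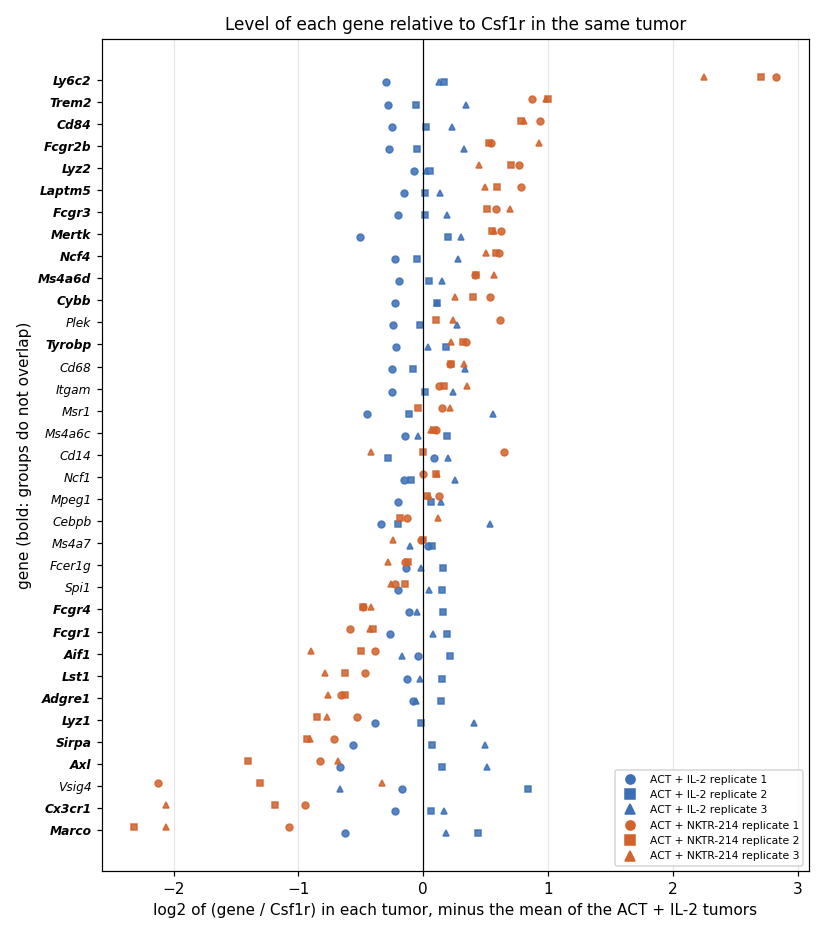
Log2 of the FPKM ratio of each gene to Csf1r in each tumor, relative to the mean of the 3 ACT + IL-2 tumors (x axis); blue symbols are ACT + IL-2 tumors, orange symbols ACT + NKTR-214 tumors, and bold names mark genes whose groups do not overlap. At the top 12 bold genes lie to the right in all 3 ACT + NKTR-214 tumors, led by Ly6c2, and at the bottom 10 lie to the left, with Marco and Cx3cr1 lowest.

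The 36 genes also varied together within each group. ACT + IL-2 replicate 1 was the highest tumor of its group in 36 of 36 genes, at a median of 2.16 times the mean of the other 2 (range 1.38 to 2.99), against 1.14 over all genes. ACT + NKTR-214 replicate 2 was the highest of its group in 32 of 36, at a median of 1.48 times, against 1.03 over all genes. ACT + NKTR-214 replicate 3 was the lowest of its group in 30. Most of the 36 genes thus ranked the tumors of a group with the same tumor at the top.

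Other genes of the same cells and pathways also rose in most cases. Of 60 such genes tested, 52 rose and 1 fell, against 20.7% and 8.28% of all genes, with a median log2 fold change of 1.23. T cell genes had a median of 3.41 in the same fit, and the part of T cells in these lists was not tested. Of the 60, 30 rose in the fit without ACT + IL-2 replicate 2. Among 11 other monocyte genes, 8 rose (median 1.28), and 3 did without that tumor. They included Plac8 (2.19, adjusted p = 2.39e-05), Ccr2, the chemokine receptor that brings monocytes into tissue (2.15, adjusted p = 8.98e-06), and haptoglobin, Hp (1.61, adjusted p = 0.00709). Ccr2 stood at 6.54, 3.84 and 2.66 FPKM in the ACT + IL-2 tumors and 23.7, 28.4 and 14.9 FPKM in the ACT + NKTR-214 tumors, so its ACT + NKTR-214 tumors all lay above the other group. Vcan, Treml4 and Nr4a1 were the 3 that did not pass. Among 15 other tissue macrophage genes tested, 13 rose (median 1.43), led by Pf4 (2.37, adjusted p = 5.11e-05) and the mannose receptor Mrc1 (2.16, adjusted p = 1.70e-05), while Cbr2 and Maf did not pass and Timd4 was too low to test. Their count was 8 without ACT + IL-2 replicate 2.

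The growth factor axis rose on both its sides, although the ligands other than Csf1 were low. All 8 colony-stimulating factor and receptor genes were higher (median 0.93; 5 without ACT + IL-2 replicate 2), with the beta chains Csf2rb2 (2.29, adjusted p = 1.34e-06) and Csf2rb (2.28, adjusted p = 1.52e-06) and the GM-CSF receptor chain Csf2ra (1.51, adjusted p = 5.92e-05) foremost. The ligand of Csf1r, Csf1, stood at 13.4, 9.66 and 9.45 FPKM in the ACT + IL-2 tumors and 19.96, 19.5 and 16.9 FPKM in the ACT + NKTR-214 tumors. The means of Il34, Csf2 and Csf3 were 0.62, 0.29 and 0.09 FPKM in the ACT + IL-2 group. In the ACT + NKTR-214 group they were 1.24, 1.17 and 0.32 FPKM. All 6 further myeloid transcription factors rose (median 1.00; 4 without ACT + IL-2 replicate 2), among them Cebpa (1.60, adjusted p = 0.000309), Klf4 (1.56, adjusted p = 7.13e-05) and Irf5 (1.24, adjusted p = 0.000199). Cebpe was low, at means of 0.13 and 0.47 FPKM, and its groups overlapped (0.36, adjusted p = 0.0464).

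In the list set beside the Fc receptors and adaptors, 10 of 10 signalling genes rose (median 1.23), and 6 did without ACT + IL-2 replicate 2. The largest change was that of Hcst (2.61, adjusted p = 1.72e-06), which encodes DAP10, the adaptor of NKG2D in NK and T cells and not of Fc receptors. Hcst stood at 2.17, 1.28 and 0.430 FPKM in the ACT + IL-2 tumors and 11.3, 17.2 and 9.47 FPKM in the ACT + NKTR-214 tumors, in tumors where T cell genes had a median log2 fold change of 3.41, and the part of T and NK cells in its rise was not tested. The phosphatase Inpp5d (1.74, adjusted p = 3.91e-05) and Vav1 (1.65, adjusted p = 5.32e-05) came next. The other NADPH oxidase genes rose in 4 of 5 cases (median 0.75), with Rac2 (2.58, adjusted p = 1.07e-05) and Cyba (1.60, adjusted p = 7.13e-05) foremost, while the ubiquitous Rac1 had 0.05, adjusted p = 0.850. Of 5 ligands and partners of the receptors, 3 rose. They were Cd47 (1.44, adjusted p = 1.65e-05), which binds SIRPA, Gas6 (1.13, adjusted p = 0.0381) and Pros1 (0.58, adjusted p = 0.0154). Gas6 and Pros1 encode proteins that bridge dying cells to MERTK, and that of Gas6 also binds AXL. The third TAM receptor, Tyro3, was the gene that fell (-0.43, adjusted p = 0.0276), and the ligand Cx3cl1 did not pass (-0.12, adjusted p = 0.543). Of these 5 genes 1 rose in the fit lacking ACT + IL-2 replicate 2 and 1 in that lacking replicate 3, and 0 fell in the fits lacking ACT + IL-2 replicate 1 or 3 or ACT + NKTR-214 replicate 2 or 3.

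Markers of other cells were read beside these results. All 6 pan-leukocyte genes rose (median 2.38), led by Coro1a (2.93, adjusted p = 1.12e-06), Cd53 (2.41, adjusted p = 2.93e-06) and Cd52 (2.41, adjusted p = 2.12e-05), and Ptprc, which encodes CD45, had 2.36, adjusted p = 6.10e-06. All 8 T cell genes rose (median 3.41), led by Cd2 (3.64, adjusted p = 1.45e-07), Cd3g (3.62, adjusted p = 2.54e-07) and Cd3e (3.53, adjusted p = 3.64e-07), and their summed level was 27.1, 12.4 and 10.8 FPKM against 281, 317 and 145 FPKM. T cells can also express Ly6c2, Laptm5 and Cd84, and their part in the rise of these genes was not tested. Of 5 NK genes 3 rose, with Klre1 (2.77, adjusted p = 1.40e-06) and Klrb1c (1.72, adjusted p = 1.49e-06) foremost, and the sum of the 5 was 0.936 to 3.06 FPKM against 8.63 to 19.3 FPKM. The defining NK marker Ncr1 did not pass (0.07, adjusted p = 0.799), nor did Klra8 (0.01, adjusted p = 0.977). Neither of 2 B cell genes tested rose, Cd79a (-0.02, adjusted p = 0.913) or Cd79b (0.04, adjusted p = 0.916), although Cd79b passed as higher in the fit without ACT + IL-2 replicate 1, giving 1 of 2. Of the others Ms4a1 and Pax5 were at or near 0, and the sum was 0.889 to 2.01 FPKM against 0.960 to 1.54 FPKM.

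Of 7 neutrophil genes tested 4 rose, with S100a9 (2.68, adjusted p = 1.17e-05), S100a8 (2.45, adjusted p = 1.02e-06) and Retnlg (1.15, adjusted p = 8.84e-05) foremost, and their sum was 2.81 to 5.67 FPKM against 20.2 to 45.3 FPKM. The defining neutrophil marker Ly6g was at 0 in 5 of 6 tumors, and Mpo and Elane stayed under the minimum of the test. Of 8 dendritic cell genes 6 rose, with Itgax (1.65, adjusted p = 8.22e-06), Batf3 (1.37, adjusted p = 5.26e-05) and Ccr7 (1.06, adjusted p = 0.00519) foremost, and their sum was 10.1 to 16.8 FPKM against 27.9 to 44.6 FPKM. Without ACT + IL-2 replicate 2 the count of dendritic cell genes was 2. Of 3 eosinophil genes tested 2 rose, from a sum of 0.0951 to 0.222 FPKM to 1.85 to 3.63 FPKM. The parts of these cells in the genes they share with monocytes and macrophages, such as Itgam, Fcer1g and Tyrobp, were not tested.

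Of 7 melanoma genes 5 fell (median -0.82), with Mitf (-1.91, adjusted p = 7.65e-06), Tyrp1 (-1.08, adjusted p = 0.0176) and Pmel (-0.90, adjusted p = 0.0299), and all 7 were lower in every ACT + NKTR-214 tumor, which held for 15.3% of all genes. The count that passed was 2 in the fits lacking ACT + IL-2 replicate 3, ACT + NKTR-214 replicate 1 or ACT + NKTR-214 replicate 2 and with no minimum, and 7 in the fit lacking ACT + IL-2 replicate 2 and with a common 75th percentile. Mitf and Tyr passed in all 6 of these, and Pmel and Tyrp1 only in the last 2. The melanoma sum was 5413 to 6933 FPKM against 2664 to 3763 FPKM. All 5 fibroblast genes rose (median 1.16), with Dcn (1.60, adjusted p = 0.000643), Col1a1 (1.19, adjusted p = 0.0116) and Col1a2 (1.16, adjusted p = 0.0106). Only 1 of 5 endothelial genes passed as higher, Pecam1 (1.11, adjusted p = 0.00554), against 20.7% of all genes. Emcn (0.52, adjusted p = 0.190) and Cdh5 (0.37, adjusted p = 0.293) were among those that did not pass. The fibroblast sum overlapped between the groups, at 144 to 408 FPKM against 380 to 735 FPKM, and like the macrophage genes it was highest in replicate 1 of the ACT + IL-2 group and in replicate 2 of the ACT + NKTR-214 group. Without ACT + IL-2 replicate 2 the count of fibroblast genes was 0 of 5 and that of endothelial genes 0 of 5, and 4 endothelial genes passed without ACT + IL-2 replicate 1 or ACT + NKTR-214 replicate 3 and 2 without ACT + NKTR-214 replicate 1. With a common 75th percentile Col1a1 and Col1a2 no longer passed, nor did Hp and Gas6 of the lists above. The endothelial sum was 23.2 to 52.2 FPKM against 36.7 to 73.3 FPKM, with the same tumor highest in each group. The summed FPKM of the 36 genes was 1389, 685 and 569 in the ACT + IL-2 tumors and 2976, 4070 and 2423 in the ACT + NKTR-214 tumors.

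**Figure D4:**
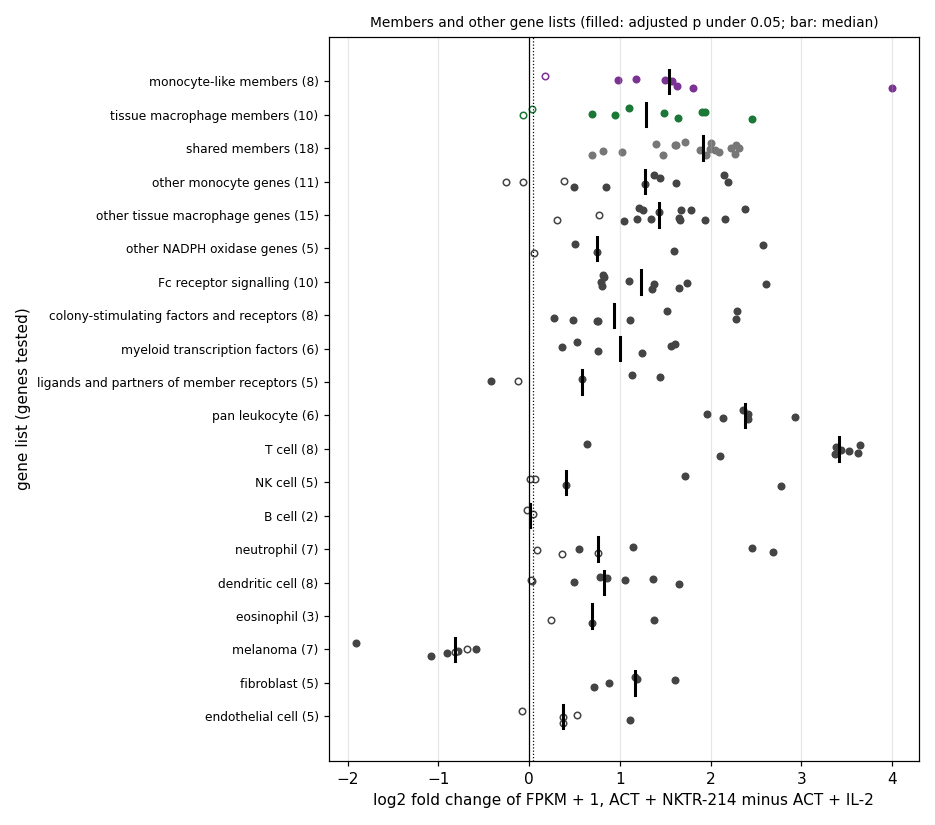
Log2 fold change of FPKM + 1 (x axis, ACT + NKTR-214 minus ACT + IL-2) of each gene tested, 1 point per gene, for the 36 genes by side and for each list set beside them; filled points had an adjusted p under 0.05 in limma, bars mark medians and the dotted line the median of all genes (the Fc receptor signalling list includes Hcst, an adaptor of NKG2D). T cell genes (median 3.41) and pan-leukocyte genes (2.38) lie furthest right, the medians of the 36 genes by side and of their pathway lists between 0.58 and 1.91, and melanoma genes (-0.82) to the left.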

How the data were processed

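Total RNA of B16-F10 tumors was sequenced by the authors as single-end reads of 50 bases. Per the labels and the study's methods, reads were mapped to GRCm38 with HISAT2 version 2.0.4 and counted with HTSeq, and the authors deposited FPKM per gene. Strand setting and annotation are not given in the sources used here. The FPKM values are not counts, so no count model was used. The 36 genes, their sides and all lists were chosen with earlier results of these data known. From each list, up to 3 tested genes with a mean of at least 1 FPKM and the largest absolute log2 fold change were named, and Ptprc; a few genes of the lists are not reported here by name. Other genes named outside this rule and the ratio to Csf1r were chosen after their values were seen.

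Values were transformed as log2(FPKM + 1), which understates the change of low genes. Genes with a mean of at least 0.1 FPKM (14172) were tested with limma version 3.58.1 under R 4.3.3 (a linear model with a trended prior variance, 2 groups of 3, Benjamini-Hochberg over all genes, threshold 0.05), after the code was tested on simulated data. SE is limma's moderated standard error. Labels name separate tumors but no litters or batches, so p-values measure the spread between these tumors. Depth was estimated from the FPKM worth of 1 read in 632 genes with a single transcript. Read counts of low genes were whole within 0.1 reads. Gene positions and windows of 50 bases shared between genes came from GENCODE vM21 transcripts, where 20135 of 21358 symbols matched, and promoters from RefSeq (GRCm38.p6). Same-numbered tumors of the 2 groups are different mice. The alternatives were another pseudocount (0.1), a minimum of 1 FPKM or none, 75th percentile scaling, quantile normalization, no trend, each gene's own variance, a replicate block and each tumor left out.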

Additional observations from a re-analysis of the deposited data

How the results depend on the processing

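No called gene among the 36 changed direction under any of the 14 other settings, and all 36 kept their side of the threshold with a pseudocount of 0.1 and with the replicate block. With each gene's own variance 0 of 36 genes passed as higher, 0 of 8 on the monocyte-like side, 0 of 10 on the tissue macrophage side and 0 of the 60 other pathway genes, and over all genes 101 were higher in place of 2940. Leaving out each tumor in turn gave 21 to 34 genes higher of the 36, 4 to 8 monocyte-like, 5 to 8 tissue macrophage and 30 to 55 other pathway genes, with the lowest count each time without ACT + IL-2 replicate 2, and 0 of the 36 lower. The median of the tissue macrophage genes minus that of the monocyte-like genes was -0.24, ran from -0.33 to -0.089 over these fits and was -0.052 with a minimum of 1 FPKM, where Vsig4 was not tested. Without any minimum 28 of 36 passed, and without the trend 31. Genes lower over the whole table numbered 1173, against 3497 with a common 75th percentile, 4526 with quantile normalization, 27 with each gene's own variance, 1996 in the fit lacking ACT + IL-2 replicate 2, 636 in that lacking replicate 3 of the same group, and 680 in that lacking ACT + NKTR-214 replicate 2. The cause was not tested.

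With the replicate number as a factor (replicate block), 33 of the 36 genes were higher and 0 lower. The deviations of same-numbered tumors correlated at -0.21, -0.07 and 0.40 across genes. ACT + IL-2 replicate 3 correlated best with its own number, and replicates 1 and 2 did not. With 3 tumors per group these correlations depend on each other, so they cannot decide whether same-numbered tumors shared a batch. Vsig4 rests on 10 and 13 reads in the groups.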
